A study of Mus musculus with 2 samples.

Results

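The cytosolic ribosomal protein genes were described in total RNA of the mouse gastrocnemius, a calf muscle of mainly fast fibres. They were chosen by symbol: genes with a protein-coding transcript whose symbol begins Rpl, Rplp or Rps followed by a digit, leaving out the S6 kinases and symbols of pseudogenes. The rule found 85 of 55536 annotated genes, of which 46 encode the canonical proteins of the large subunit and 30 those of the small subunit. The other 9 were the paralogues Rpl3l, Rpl22l1, Rps27l, Rpl36al, Rpl7l1, Rpl39l and Rpl10l, the copy Rps27rt, and Rps19bp1, which encodes a binding partner of Rps19 and is no ribosomal protein. Ribosomal proteins with other symbols, such as Rpsa, Fau and Rack1, are not among the 85.

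Muscle was taken from adult males of a 5xFAD by CAST cross at 8 to 10 months, with The Jackson Laboratory as source. 5xFAD mice carry mutant human transgenes, including APP, under the neuronal Thy1 promoter, and CAST is an inbred line of the subspecies castaneus. The data comprised 1 group of 2 libraries, numbered 1 and 2 as biological replicates. Their biosamples are separate but share one donor entry, so their spread may be partly technical. Each library was made with a directional kit from 300 ng of RNA, with ribosomal RNA reduced and spike-in RNA added. There was no second genotype, age or tissue, so levels are given per library or as mean ± SD over n = 2 libraries, and no p-value can be drawn.

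A ribosome is built from ribosomal RNA and a set of small basic proteins, one copy of nearly every protein per ribosome, which the cell must therefore make in matched amounts. The mRNAs of most ribosomal proteins begin with a run of pyrimidines, the terminal oligopyrimidine tract, through which growth signals acting by mTOR and Larp1 set their translation. Striated muscle differs from other tissues in one large-subunit protein: Rpl3l, a paralogue of Rpl3, is made in skeletal muscle and heart, and Rpl3 lies close to the peptidyl transferase centre.

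The gene tables held 35163970 expected counts in replicate 1 and 35412240 in replicate 2. The 5 skeletal muscle fibre markers (Acta1, Ckm, Myh4, Tnnt3 and Mylpf) lay between 11906 TPM and 18503 TPM on average. Heart markers lay between 0.115 TPM for the atrial gene Myl7 and 56.7 TPM for Myh6. In the kallisto-layout table, described further on, Myh6 had 20.5 TPM on average. Markers of endothelium summed to 42.1 TPM in replicate 1 and 27.7 TPM in replicate 2, those of adipocytes to 177 and 121 TPM, and those of fibroblasts to 235 and 239 TPM. In bulk RNA, fewer cells of a type and less RNA per cell cannot be told apart.

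The ribosomal protein genes were expressed almost without exception and at high levels. TPM is a level scaled for transcript length and library depth. At least 1 TPM was present in both libraries for 83 of the 85 genes, at least 10 TPM for 81 and at least 100 TPM for 64. Among the 22015 nuclear protein-coding genes, 45.7%, 19% and 2.37% reached these 3 levels. All 76 canonical genes reached 10 TPM in both libraries, and 62 of them reached 100 TPM. The median over the 85 genes was 195 TPM in replicate 1 and 181 TPM in replicate 2, beside 0.71 and 0.63 TPM for nuclear protein-coding genes. Their summed TPM took 3.61% and 3.598% of the nuclear protein-coding TPM. By expected counts, which are not scaled for length, the share was 0.875% in each library.

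Levels within the set were uneven, although the proteins are assembled in matched amounts. Canonical genes ran from 15.2 to 604 TPM on average, with a coefficient of variation across genes of 54.6%. The highest in the gene table was Rplp1, an acidic protein of the stalk that recruits elongation factors, at 626 TPM in replicate 1 and 581 TPM in replicate 2. Other high genes were Rps29 at 462 and 443 TPM, Rps27 at 474 and 429 TPM, and Rpl41, which encodes a very short peptide, at 473 and 416 TPM. In TPM, replicate 1 was the higher library for each of these 4 genes. In the kallisto-layout table, described further on, Rps29 at 694 TPM and Rpl41 at 595 TPM on average lay above Rplp1 at 442 TPM.

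The 5 lowest canonical genes all belong to the large subunit. Rpl27 had 15.7 TPM in replicate 1 and 14.8 TPM in replicate 2. Rpl5, which binds 5S ribosomal RNA together with Rpl11, had 17.2 and 14.8 TPM, while Rpl11 had 109 and 93.2 TPM. Rpl3 had 22.8 and 15.8 TPM, Rpl12, at the base of the stalk, 34.4 and 32.8 TPM, and Rpl27a 35.2 and 35.8 TPM. Small-subunit genes had a narrower span: the lowest, Rps23, a protein of the decoding centre, was at 84.1 TPM in replicate 1 and 82.2 TPM in replicate 2. The coefficient of variation averaged 62.0% over large-subunit genes and 44.1% over small-subunit genes. In the kallisto-layout table the 2 were closer, at 50.5% and 47.6%. Except for Rpl3, the low values of these genes came with high levels of pseudogene copies or a different level in the second table, as given further on.

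**Figure D1:**
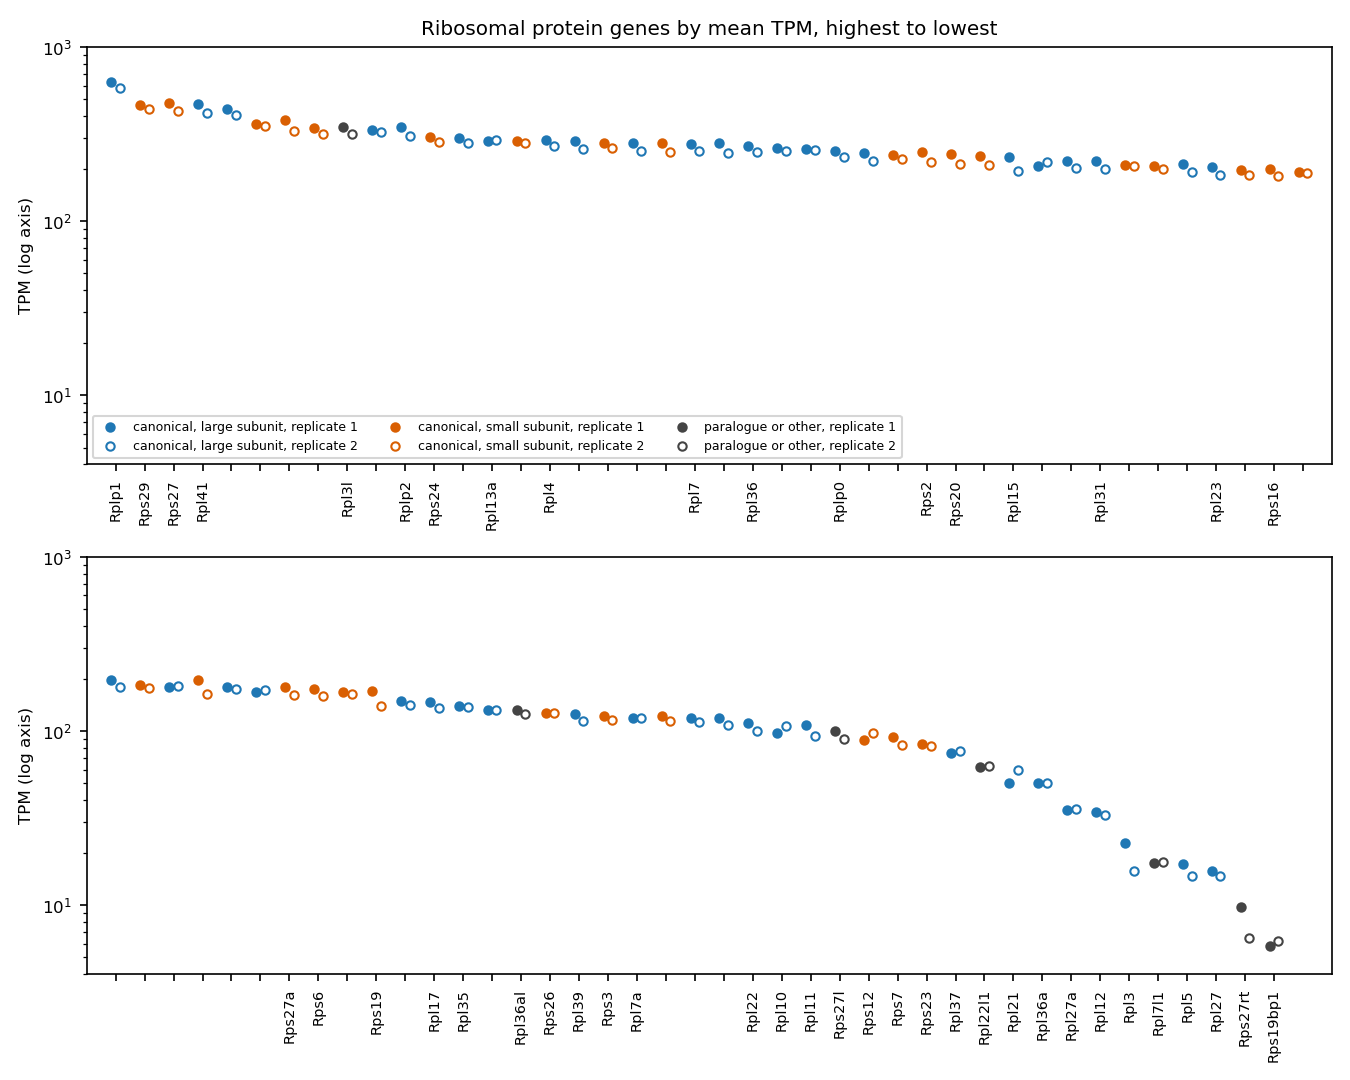
TPM of the 83 genes listed above 0 (vertical log axis) in replicate 1 (filled) and replicate 2 (open), ordered by mean TPM from Rplp1 to Rps19bp1 over 2 panels, with names given for genes described in the text. Blue marks large-subunit genes, orange small-subunit genes and grey the paralogues and others. Rpl3l stands 9th, and Rpl3, Rpl5 and Rpl27 lie near the lower end.

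The subunits were matched at their medians. The large-subunit median was 200.1 TPM in replicate 1 and 183 TPM in replicate 2, against 203 and 194 TPM for the small subunit, which gave a large-to-small ratio of 0.987 and 0.941. The mean ratio was 0.964 ± 0.032 (SD, n = 2). The ratio of the summed TPM was 1.34 and 1.35, beside 46 large-subunit and 30 small-subunit genes. The 3 proteins of the stalk, Rplp0, Rplp1 and Rplp2, together had 1226 TPM in replicate 1 and 1123 TPM in replicate 2. Within it, Rplp1 exceeded Rplp2, at 348 and 307 TPM, and the anchor Rplp0, at 252 and 234 TPM. Rps27a, which is made as a fusion with ubiquitin, had 179 and 161 TPM, and Rps6, the substrate of the S6 kinases, had 174 and 159.5 TPM.

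Rpl3l was the 9th highest of the 85 genes and the 140th of all nuclear protein-coding genes. The gene (ENSMUSG00000002500.15) lies on the plus strand of chromosome 17, from 24727820 to 24736143 on mm10. Rpl3 (ENSMUSG00000060036.14) lies on the minus strand of chromosome 15, from 80077791 to 80091868. Rpl3l had 346 TPM in replicate 1 and 315 TPM in replicate 2, from 11218 and 10842 expected counts, against 22.8 and 15.8 TPM for Rpl3, from 582 and 442 counts. In both libraries Rpl3l lay far above Rpl3: the ratio of Rpl3l to Rpl3 was 15.2 in replicate 1 and 19.97 in replicate 2. Rpl3l was thus 93.8% and 95.2% of the pair's TPM, 94.5 ± 0.997% on average (SD, n = 2). By counts it was 95.1% of the pair in replicate 1 (exact 95% interval 94.7% to 95.5%) and 96.1% in replicate 2 (95.7% to 96.4%). These intervals cover counting error only, since reads are not independent molecules.

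Together the pair had 369 TPM in replicate 1 and 330.3 TPM in replicate 2, above the large-subunit medians of 200.1 and 183 TPM. Rpl3 itself was 2649th among nuclear protein-coding genes. Nearly all Rpl3l RNA was assigned to one transcript, Rpl3l-202, with 342 and 312 TPM, beside 1.19 and 1.04 TPM for Rpl3l-201 and 2.22 and 1.88 TPM for Rpl3l-203. The posterior SD of the Rpl3l count, which measures how uncertainly reads were divided among genes, was 0 in both libraries. For Rpl3 it was 5.84% and 7.59% of the count.

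The start of both coding sequences is shown because their differences bear on whether reads of the pair can be told apart. Over 1202 aligned bases, 899 were identical (74.8%), the longest identical run was 22 bases, and none of the 1191 stretches of 31 bases in Rpl3l occurred in Rpl3. The first 90 coding bases of Rpl3l-202 (plus strand of chromosome 17) and Rpl3-201 (minus strand of chromosome 15), from the GENCODE M21 transcripts, follow 5′ to 3′ with the 21 differing bases in capitals.
Rpl3l: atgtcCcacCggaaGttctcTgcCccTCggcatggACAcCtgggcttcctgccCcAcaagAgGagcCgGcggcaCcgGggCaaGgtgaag
Rpl3: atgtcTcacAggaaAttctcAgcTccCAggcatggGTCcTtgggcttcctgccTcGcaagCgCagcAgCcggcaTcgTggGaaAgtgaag
The differing bases are spread along the stretch, with identical runs of no more than a few codons between them. Rpl3l had no pseudogene copy in the annotation. Rpl3 had 4, with 14.6 TPM in replicate 1 and 14.4 TPM in replicate 2 in all, nearly all of it at Rpl3-ps1. With these copies added to Rpl3, chosen after the values were seen, Rpl3l remained 90.8% of the sum.

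The 250 bases before the RefSeq start of Rpl3l are shown because the gene's level in muscle stands apart from that of its partner. They lie at chr17:24727576-24727825 on the plus strand (RefSeq, GRCm38.p6), next to the first of 2 RefSeq starts, at 24727826, which is 6 bases beyond the GENCODE start. The capitals mark each match to CANNTG, the E-box, a short palindrome bound by muscle regulators of the MyoD family among many other factors.
Rpl3l: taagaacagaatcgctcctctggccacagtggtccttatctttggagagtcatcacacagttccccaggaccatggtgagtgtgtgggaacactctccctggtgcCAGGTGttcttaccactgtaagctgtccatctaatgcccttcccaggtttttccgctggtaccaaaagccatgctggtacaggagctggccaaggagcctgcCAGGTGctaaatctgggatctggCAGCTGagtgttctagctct
The window held 3 matches: CAGGTG at 2 places and CAGCTG nearest to the start. The motif is the same read from either strand. At least 1 CANNTG was found in 49.2% of the windows of the 65 ribosomal protein genes with a RefSeq entry, and in 66.1% of 16522 nuclear protein-coding genes. CAGCTG was found in 6.15% and 13.98% of them. A match is a sequence description and shows no binding.

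The other paralogues were mostly the lesser partner. Rpl22l1 had 61.7 TPM in replicate 1 and 62.5 TPM in replicate 2, against 111 and 99.97 TPM for Rpl22, or 37.1 ± 2.00% of the pair (SD, n = 2). Rps27l, known in human cells as a target of p53, had 99.3 and 89.9 TPM, against 474 and 429 TPM for Rps27, or 17.3% of the pair in each library. Rpl7l1, a relative of Rpl7, had 17.5 and 17.7 TPM, against 278 and 252 TPM for Rpl7, or 6.25 ± 0.462% of the pair. In each of these 3 pairs the partner was higher in both libraries.

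Rpl36al was the second paralogue above its partner as the reads were assigned, at 133 TPM in replicate 1 and 125 TPM in replicate 2, against 50.2 and 50.3 TPM for Rpl36a. It was 71.9 ± 0.927% of the pair (SD, n = 2), but 54.9% in the kallisto-layout table, where Rpl36a was at 92.5 TPM. The coding sequences of this pair are closer, with 279 of 318 bases identical (87.7%), and are shown for that reason. The first 90 coding bases of Rpl36al-201 (chromosome 12, minus strand) and Rpl36a-201 (chromosome X, plus strand) have the 14 differing bases in capitals.
Rpl36al: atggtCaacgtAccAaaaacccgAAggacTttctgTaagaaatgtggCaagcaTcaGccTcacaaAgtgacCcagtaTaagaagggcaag
Rpl36a: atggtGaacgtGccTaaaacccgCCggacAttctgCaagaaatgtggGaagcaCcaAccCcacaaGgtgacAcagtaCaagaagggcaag
Most of the differences fall on the last base of a codon. A pseudogene, Rpl36a-ps2, held a further 98.7 TPM in replicate 1 and 89.7 TPM in replicate 2, above Rpl36a itself. With the copies of both genes added, the order in the gene table turned, with 129 TPM for Rpl36al and 144 TPM for Rpl36a on average. In the kallisto-layout table with copies it did not, with 159 TPM for Rpl36al and 139 TPM for Rpl36a.

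Rpl39l and Rpl10l, whose expression is best known from the male germ line, had no count in either library, while their partners Rpl39 and Rpl10 had 125 and 114 TPM, and 96.9 and 107 TPM. A count of 0 allows up to 3 counts, which is 0.203 TPM in replicate 1 and 0.191 TPM in replicate 2 for Rpl39l, and 0.127 and 0.120 TPM for Rpl10l. Rps27rt, on chromosome 9, has a coding sequence identical to that of Rps27 over all 252 bases, so reads of the coding part cannot be told apart. It was given 9.78 and 6.45 TPM, from 69 and 48 counts, with a posterior SD of 29.7% and 41.4% of the count. The kallisto-layout table gave it 0 TPM. Rps19bp1 had 5.83 TPM in replicate 1 and 6.19 TPM in replicate 2.

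**Figure D2:**
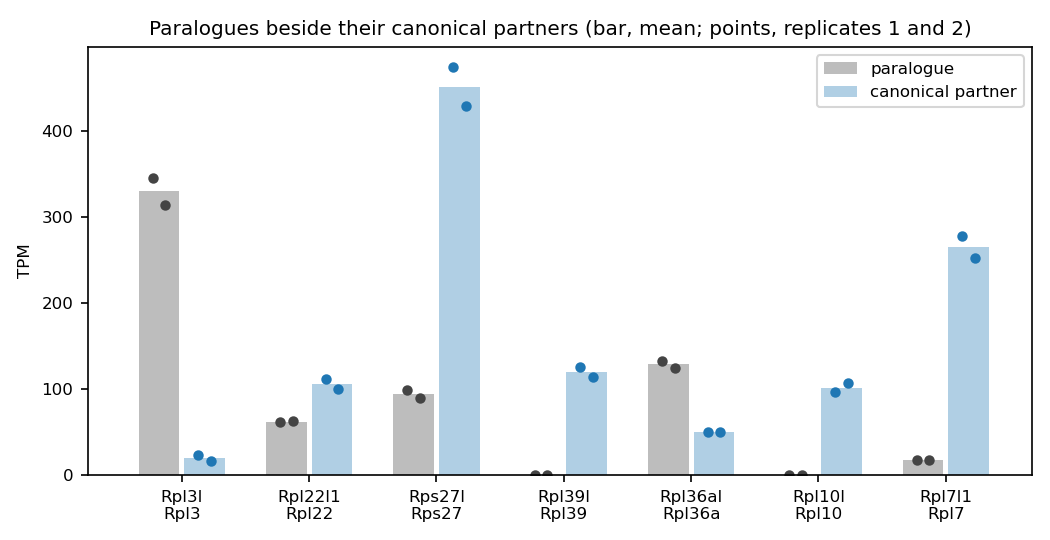
TPM of 7 paralogues (grey, left) beside their canonical partners (blue, right); bars are means and points are replicates 1 and 2. Rpl3l at 346 and 315 TPM and Rpl36al at 133 and 125 TPM stand above their partners as the reads were assigned, and the other 5 paralogues stand below theirs.

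The starts of the genes were examined for pyrimidine runs like the one by which the family is known. Of the 65 genes with a RefSeq promoter entry, 27 (41.5%) had a run of at least 8 bases, all C or T, within 15 bases before and 15 bases after an annotated start, against 14.1% of 16522 nuclear protein-coding genes. The same run on the other strand, read as A or G, was found in 4.62% and 15.2%. Because the window also covers bases before the start, a run counted here need not begin the mRNA. That of Rpl4, printed below, lies wholly before the start. The windows of the 5 highest genes with a run and of the 5 paralogues with a count are printed from RefSeq (GRCm38.p6), 5′ to 3′, with runs of 8 or more in capitals; the start is the 16th base.
Rps27, chr3:90213634-90213663, minus strand: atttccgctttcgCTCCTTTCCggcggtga
Rplp2, chr7:141447636-141447665, plus strand: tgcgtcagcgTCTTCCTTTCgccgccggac
Rps24, chr14:24490663-24490692, plus strand: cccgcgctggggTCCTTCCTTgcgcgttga
Rpl13a, chr7:45128731-45128760, minus strand: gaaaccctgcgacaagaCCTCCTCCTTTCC
Rpl4, chr9:64173372-64173401, plus strand: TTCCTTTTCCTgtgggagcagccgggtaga
Rpl3l, chr17:24727811-24727840, plus strand: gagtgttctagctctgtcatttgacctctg
Rpl36al, chr12:69184053-69184082, minus strand: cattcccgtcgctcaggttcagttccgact
Rps27l, chr9:66946071-66946100, plus strand: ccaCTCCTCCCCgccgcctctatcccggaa
Rpl22l1, chr3:28805493-28805522, plus strand: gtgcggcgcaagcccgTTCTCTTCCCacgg
Rpl7l1, chr17:46782642-46782671, minus strand: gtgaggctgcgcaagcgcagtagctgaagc
Rps27l and Rpl22l1 had runs of 9 and 10, while Rpl3l, Rpl36al and Rpl7l1 had none of 8, with longest runs of 5, 5 and 2. The windows of Rpl39l and Rpl10l, which had no count, had longest runs of 7 and 5. A window without the run says only that these letters are absent near the annotated start, which may not be the start used in muscle.

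The replicates were compared gene by gene for the 82 ribosomal protein genes whose expected count averaged 100 or more. The 3 left out were Rps27rt, Rpl39l and Rpl10l. Ratios are of TMM-scaled counts, replicate 1 over replicate 2, with exact binomial 95% intervals for counting error. At 1.2-fold, 3 of 82 genes were apart, beside 11.8% of all 9741 genes tested, and none of the 82 reached 1.5-fold, beside 1.22% of all genes. The spread of the log2 ratios was narrower, with an SD of 0.106 against 0.265 over all genes, whose ratios ran from -10.8 to 8.97. The lower and upper quartiles were closer, at -0.093 and 0.007 against -0.086 and 0.091 over all genes. The sets were not matched for count, on which the spread and the number past a fold also depend.

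The ratios leaned to one side. The log2 ratio was above 0 for 22 of 82 genes and below 0 for 60, where 49.3% of all genes tested were above 0, and the median was -0.033 against -0.0016 for all genes. By subunit, 13 of 46 large-subunit and 8 of 30 small-subunit genes were above 0. The exact interval excluded 0 for 27 of 82 genes, against 24.3% of all genes tested. It lay above 0 for 5 of them, against 11.9% of all genes, and below 0 for 22, against 12.4%. How often an interval excludes 0 depends on a gene's count as well as on its ratio. With library totals as the scale 53 of 82 were above 0, and with deposited TPM 67 were. Going from TMM to library totals moves the log2 ratio of every gene up by the same amount. The place of the ribosomal protein genes relative to all genes is therefore unchanged by it. How many of all genes were above 0 on these scales was not counted. TPM raised the median of all genes tested to 0.13, and that of the ribosomal protein genes, at 0.10, was again the lower. Of 4 endothelial markers 3 were at least 1.2-fold higher in replicate 1, as were 4 of 4 adipocyte markers, while 2 of 4 fibroblast markers were higher in replicate 2. The part of these cells in the ratios was not tested.

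**Figure D3:**
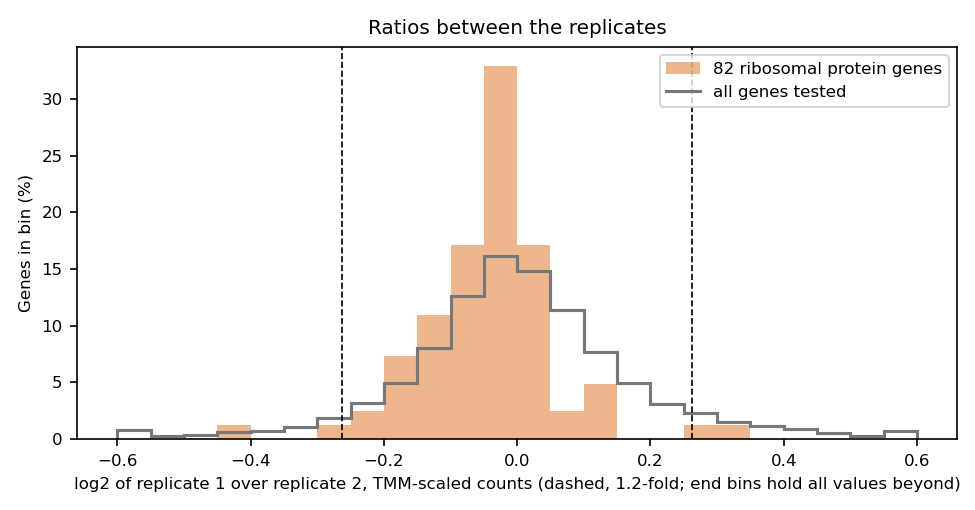
Share of genes (vertical axis, %) by log2 ratio of replicate 1 over replicate 2 in bins of 0.05, for the 82 ribosomal protein genes (filled) and all 9741 genes tested (line). The filled histogram is narrower, has its peak just below 0 and has 3 genes beyond the dashed lines at 1.2-fold.

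Rpl21 was the gene lowest in replicate 1 relative to replicate 2, with 1076 counts in the first library and 1381 in the second. Its log2 ratio was -0.41 (interval -0.53 to -0.30). Rpl10, Rps12 and Rpl12 followed at -0.26, -0.25 and -0.23, inside 1.2-fold. At the other end Rpl3 had a log2 ratio of 0.34 (0.16 to 0.53), from 582 and 442 counts, and Rpl27 one of 0.30 (0.004 to 0.59), from 225 and 177 counts. Rps19 and Rpl15 were next at 0.14 and 0.12. Rpl3l had a log2 ratio of -0.003 (-0.041 to 0.036), so the libraries differed little in Rpl3l and more in Rpl3. Of the 3 genes past 1.2-fold, Rpl3 and Rpl27 had a posterior SD above 5% of the count. In the kallisto-layout table none of the 82 was 1.2-fold apart: Rpl21 was at -0.17, Rpl3 at 0.22 and Rpl27 at -0.19, the opposite direction.

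Some levels depended on which program divided the reads. The second table, called kallisto-layout after its format, holds transcript estimates that were summed per gene. Of the 82 genes, 17 differed at least 1.5-fold in mean TPM between the gene table and the kallisto-layout table, against 4.07% of all genes tested, and 8 differed at least 2-fold, against 2.01%. All 8 were lower in the gene table, where 1.56% of all genes were 2-fold higher and 0.452% 2-fold lower. The gene table was higher for 3 of the 17 and lower for 14, where 2.37% and 1.69% of all genes fell on these sides. Rpl3l was close, at 330.2 TPM in the gene table and 323 TPM in the kallisto-layout table, as was Rpl3, at 19.3 and 18.1 TPM.

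The 3 largest gaps were at Rpl27, Rpl5 and Rpl27a, all among the lowest canonical genes. Rpl27 had 15.2 TPM in the gene table and 117 TPM in the kallisto-layout table, a log2 ratio of -2.94, and Rpl5 had 15.98 and 65.7 TPM (-2.03). Rpl27a had 35.5 and 123 TPM (-1.79), and Rpl10, a late-joining protein of the large subunit, 102 and 292 TPM (-1.52). On the other side were Rpl36 with 259 and 132 TPM (0.98), Rpl17 with 141 and 93.1 TPM (0.60), Rps3 with 119 and 78.4 TPM (0.60) and Rplp1 with 604 and 442 TPM (0.45). Across the 83 genes of at least 1 TPM, log2 TPM of the tables had a Pearson correlation of 0.810 and a Spearman correlation of 0.865. These points are genes of the same libraries and are not independent.

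Ribosomal protein genes have many processed pseudogenes, copies of their mRNA inserted elsewhere in the genome. Sharing at least 50% of its 31-base stretches with a transcript of the gene marked an annotated pseudogene as a copy, a definition chosen after the table differences were seen. There were 299 copies for 69 of the 85 genes, with 19 for Rpl21, 18 for Rpl7a and 17 for Rps2 as the highest numbers. Of these, 81 copies had at least 1 TPM in the gene table. The copies summed to 4662 TPM in replicate 1 and 4231 TPM in replicate 2, or 21.8% and 21.4% of the genes and copies together. In the kallisto-layout table they were 12.8%.

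For 12 genes the copies held more TPM than the gene in the gene table, and for 4 in the kallisto-layout table. The copies of Rpl27 had 201 TPM in replicate 1 and 203 TPM in replicate 2, against 15.7 and 14.8 TPM for the gene. Gm15500, a transcribed pseudogene on the minus strand of chromosome 7 (114705217 to 114706235), shares all of its 31-base stretches with Rpl5 and had 205 and 192 TPM, against 17.2 and 14.8 TPM for Rpl5. Gm10275, on the minus strand of chromosome 10 (29698746 to 29699380), had 240 and 219 TPM, against 34.4 and 32.8 TPM for Rpl12. For Rpl12 the kallisto-layout table had the same order, with 247 TPM for Gm10275 and 41.1 TPM for the gene. Rpl37rt, annotated as a transcribed pseudogene on chromosome 5, had 249.4 and 212 TPM, against 75.1 and 76.6 TPM for Rpl37. In the kallisto-layout table Rpl5 also kept its order, with 164 TPM for Gm15500 and 65.7 TPM for the gene. There the order turned for Rpl27, with 117 TPM against 83.3 TPM for its copies. It turned for Rpl37 too, with 191 TPM against 182 TPM for Rpl37rt.

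With each gene and its copies summed, the tables came closer together. The number of genes at least 1.5-fold apart was then 6 of 82, against 17 for the genes alone, and 1, Rpl10, remained 2-fold apart. Among the 6 was Rps19, which was past 1.5-fold only with its copies, at a log2 ratio of 0.71 in place of 0.33. Rpl27 with its copies had 217 TPM in the gene table and 201 TPM in the kallisto-layout table, a log2 ratio of 0.11 in place of -2.94. The SD of the log2 ratios was 0.31 with copies and 0.58 without. The levels of canonical genes were also more even, with a coefficient of variation of 39.3% with copies and 54.6% without. Rpl3 with its copies, at 33.8 TPM, was then the lowest canonical gene, with Rpl5 at 214 TPM and Rpl27 at 217 TPM.

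**Figure D4:**
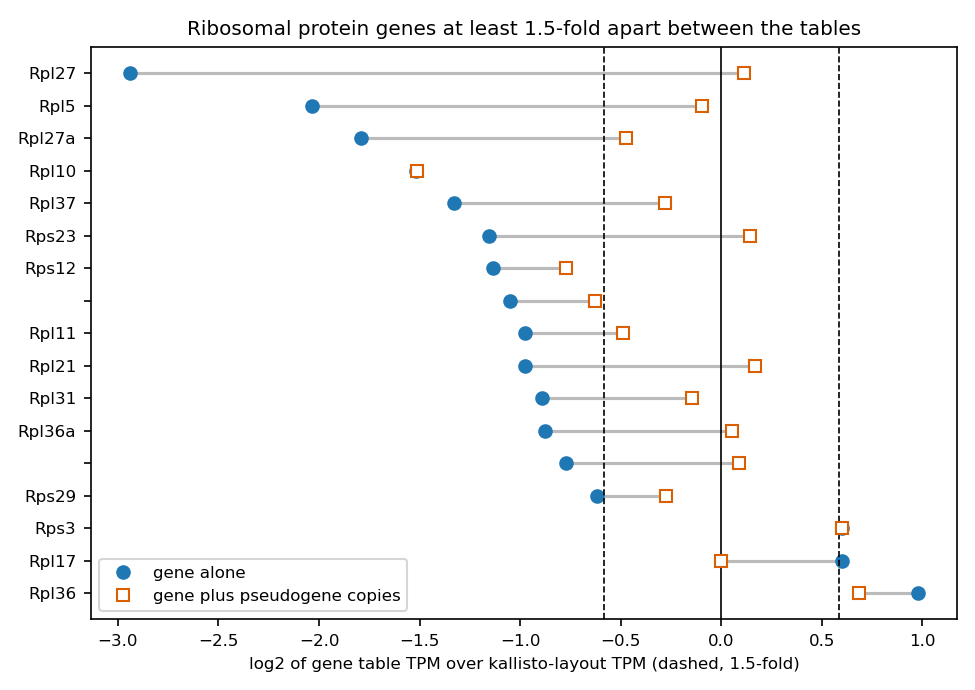
log2 ratio of mean TPM, gene table over kallisto-layout table, for the 17 genes at least 1.5-fold apart, alone (blue circles) and with their pseudogene copies added (open orange squares). Names are given for genes described in the text. Most squares lie between the dashed lines at 1.5-fold. Rpl10 stays at -1.51 and Rps3, which has no copy, at 0.60. Rps19, past 1.5-fold only with its copies, is not among the 17 and is not drawn.

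A posterior SD above 5% of the count marked 5 of the 82 genes, against 2.88% of all genes tested: Rpl3, Rpl10, Rpl27, Rpl36a and Rps12. The SD reached 11.01% of the count for Rpl27 and 10.4% for Rps12. Of these 5 genes 4 were among the 17 that differed between the tables, as were 13 of the other 77. Most of the genes apart between the tables thus had a low posterior SD, although the share apart was higher among the 5.

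Most RNA of the ribosomal protein genes was assigned to transcripts annotated as protein_coding. The median share of a gene's TPM in this class was 99.1% in replicate 1 and 98.8% in replicate 2, beside 95.2% and 95.1% for nuclear protein-coding genes of at least 1 TPM. Under 50% was found for 13 of 83 genes (15.7%), where 7.49% of nuclear protein-coding genes were under 50%, and 9 of the 13 were under 50% in the kallisto-layout table too. Among the lowest were Rps16 at 1.65% in replicate 1 and 0.848% in replicate 2, Rps20 at 3.01% and 3.10%, and Rpl35 at 3.75% and 5.13%. Rpl37 had 14.5% and 11.8%.

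The leading transcript of these genes was named for a class that makes no protein but carried most of the coding sequence. For 12 of the 83 genes the transcript of highest TPM belonged to such a class, mostly retained_intron (6 genes) or processed_transcript (5 genes). None of the 12 held the whole coding sequence. Of the 71 genes led by a protein_coding transcript, 55 had a leading transcript that held it, so the others did not either. The 12 contained a median of 96.5% of the 31-base stretches of the coding sequence, with 58.9% in Rps23-202 and 99.4% in Rpl35-203. Rps20-201, called retained_intron, had 205 TPM in replicate 1 and 179 TPM in replicate 2 and held 99.4% of the coding stretches. Rps20-203, the protein_coding entry, is 3706 bases long and had 7.30 and 6.59 TPM.

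The programs divided some genes among their transcripts in different ways. Rps23 was 85.2% retained_intron in the RSEM-layout transcript table and 89.7% processed_transcript in the kallisto-layout table. Rpl22l1 had 78.3% of its TPM in processed_transcript entries in the RSEM-layout table and 15.8% in the kallisto-layout table. For Rps20, Rpl35 and Rps26 the leading class was the same in both tables.

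**Figure D5:**
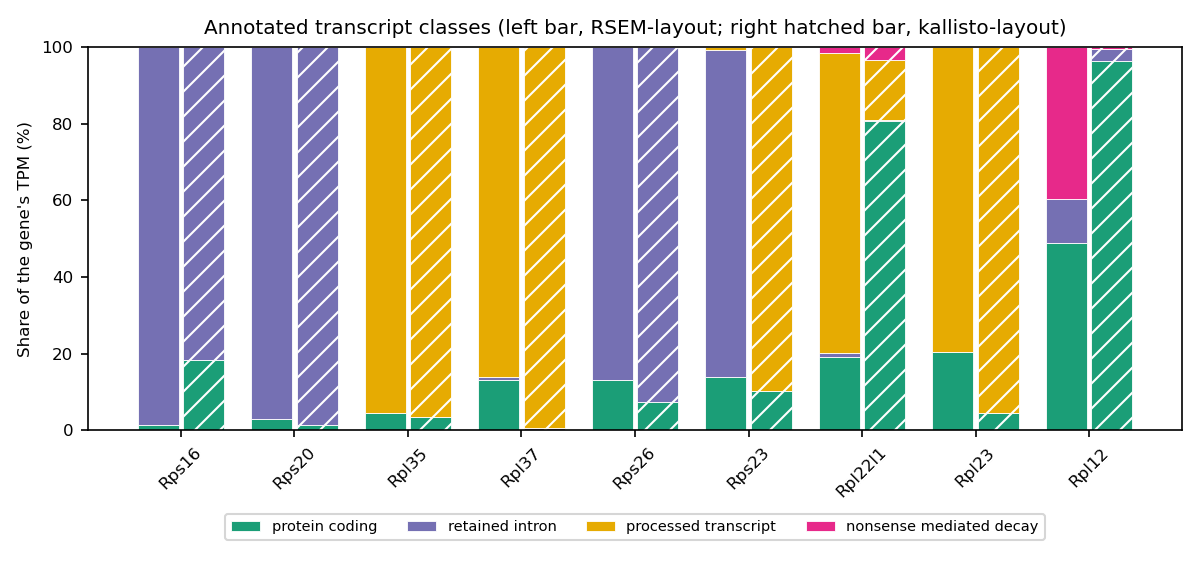
Share of each gene's mean TPM (vertical axis, %) by annotated transcript class for 9 of the 13 genes with under 50% in protein_coding transcripts, those described in the text, in the RSEM-layout transcript table (left bar) and the kallisto-layout table (right, hatched). Rps20, Rpl35, Rpl37, Rps26 and Rpl23 are among the genes low in protein_coding in both tables, and Rpl22l1 and Rpl12 are mostly protein_coding in the kallisto-layout table.

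Genes of ribosome assembly and control had medians far below that of the ribosomal proteins. Ribosomal proteins with other symbols lay within the range of the 85: Rpsa, of the small subunit, had 189 TPM in replicate 1 and 187 TPM in replicate 2, Fau, which is made as a fusion with a ubiquitin-like protein, 213 and 184 TPM, and Rack1, a scaffold on the small subunit, 183 and 169 TPM. The 37 ribosome assembly factors had a median of 11.7 TPM, all of them at 1 TPM or more in both libraries. Npm1, a nucleolar chaperone, was highest at 60.5 and 53.9 TPM, with Ncl at 51.8 and 48.8 TPM, and Mdn1 lowest at 2.82 and 3.23 TPM, next to Nle1 at 4.46 and 3.74 TPM. Of the 36 tested, 0 were 1.2-fold higher in replicate 1 and 2 in replicate 2, beside 6.71% and 5.09% of all genes. The 19 genes of RNA polymerase I and its factors had a median of 9.39 TPM, with Polr1d at 36.4 and 36.5 TPM and Polr2f at 33.5 and 30.1 TPM the highest.

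The 15 genes that control translation of ribosomal protein mRNAs or phosphorylate S6 had a median of 14.98 TPM. Cnbp, a protein that binds these mRNAs, led with 283 TPM in replicate 1 and 245 TPM in replicate 2, and Eif4ebp2 had 90.1 and 81.4 TPM. Larp1, the repressor that holds the pyrimidine tract, had 46.4 and 47.2 TPM. Myc, at 1.19 and 2.47 TPM, and Rps6ka1, at 2.07 and 1.38 TPM, were lowest. Of the factors found on resting ribosomes, Eef2 had 584 and 537 TPM, Serbp1 123 and 116 TPM, Ccdc124 31.6 and 31.3 TPM and Habp4 11.2 and 10.4 TPM. Mettl18, the enzyme that methylates a histidine of RPL3 in human cells, had 1.72 TPM in replicate 1 and 1.78 TPM in replicate 2.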

How the data were processed

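Total RNA of gastrocnemius was sequenced in 2 libraries of 1 group. The authors deposited gene and transcript tables laid out as by RSEM, whose columns are expected counts (reads matching more than one gene are split), TPM and the count's posterior SD, per the file headers. They also deposited transcript values laid out as by kallisto, with estimated counts and TPM, here summed per gene. The build is mm10 with annotation M21, per the labels and the deposited notes. For aligner, programs and strand of counting, the sources used here give nothing, and 19 of the 85 genes overlap an exon of another gene on the opposite strand.

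Gene totals were 35163970 and 35412240 expected counts. Levels used deposited TPM. Replicate ratios were taken from rounded expected counts with TMM factors (edgeR 4.0.16, genes averaging 10 counts or more), a prior of 0.5 counts and exact binomial 95% intervals, which cover counting error only. Table ratios used a pseudocount of 0.1 TPM. The replicate ratios were tested on simulated libraries. For the table ratios, TPM multiplied by a known factor was only checked to give that factor back. Genes and lists were chosen with earlier results of these data known. Named genes are the 5 highest and lowest canonical genes, the paralogue pairs (Rps4l, Rps3a2 and Rps3a3, annotated as pseudogenes, left out), the 4 highest and lowest ratios between replicates and between tables, the 5 lowest protein_coding shares and, of the other lists, the highest and lowest 2; other names were chosen after their values were seen, and some genes the rule names are not reported here. Promoters are RefSeq entries, matched for 65 genes by symbol. The alternatives tried were size factors of DESeq2 1.42.0, scaling by library totals, TPM, other minimums, priors and folds, the kallisto-layout table, single libraries and pseudogene copies. Software was matplotlib 3.10.9, Biopython 1.88, scipy 1.17.1, pandas 2.3.3, numpy 2.4.6 and R 4.3.3.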

Additional observations from a re-analysis of the deposited data

How the results depend on the processing

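No paired analysis was possible because the libraries form 1 group. Each library alone gave a share of nuclear protein-coding TPM of 3.598% to 3.61%, a median of 181 to 195 TPM, an Rpl3l share of 93.8% to 95.2%, a subunit ratio of 0.941 to 0.987, a protein_coding share of 98.8% to 99.1%, 81 genes at 10 TPM, 16 to 19 genes apart between tables and 5 with divided reads. Leaving out a library was not possible for the replicate ratios. The TPM share was 4.03% in the kallisto-layout table, 0.875% by counts, 3.67% with ribosomal proteins of other symbols in place of the paralogues, 4.12% with named pseudogenes and 4.597% with all copies. The median was 200.4 TPM in the kallisto-layout table and 230.5 TPM with copies. The Rpl3l share was 95.6% by counts and 90.8% with copies of Rpl3, and within 1 SD of its value in the kallisto-layout table and over protein_coding transcripts. The ratio of subunit sums was 1.35, and the protein_coding share was 97.6% by the kallisto-layout values. At a posterior SD of 10% of the count 2 genes had divided reads. At least 2-fold apart between the tables were 8 genes, and 6 were 1.5-fold apart with copies. Between the replicates 0 genes were 1.2-fold apart in the kallisto-layout table, 1 without divided reads, 1 with copies added, and 0 at 1.5-fold. The median log2 ratio was 0.029 with library totals, which move all genes alike, and 0.10 with TPM, where that of all genes tested was 0.13. Rpl27 turned to -0.19 in the kallisto-layout table. The log2 ratio of Rpl36al over Rpl36a was 1.35, and -0.17 with the copies of both. Of 62 alternatives 42 stayed within the spread or within 1.5 times a count. For results with an SD, a single library always lies within the SD of the 2, so those alternatives were bound to stay. The copies were added after seeing the data. With 2 libraries the SD is itself poorly known, so these limits describe size only. At this depth Rpl39l and Rpl10l were not detected.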

Other observations

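At the level of transcripts, the libraries differed for Rpl10, more so in the kallisto-layout table. Rpl10-201 had 52.4 TPM in replicate 1 and 67.1 TPM in replicate 2 in the RSEM-layout transcript table, and 99.8 and 0.069 TPM in the kallisto-layout table. There Rpl10-202 had 199 TPM in replicate 1 and 277 TPM in replicate 2, so that the summed gene level was 302 and 281 TPM.

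Several copies with high TPM in the gene table were listed at 0 in the kallisto-layout table. Rpl31-ps8, a copy of Rpl31 on chromosome 15, had 141 TPM in replicate 1 and 146 TPM in replicate 2, and Gm14303, a copy of Rps29 on chromosome 2, had 142 and 102 TPM. Others were at a like level in both: Gm6472, a copy of Rps7 on chromosome X, had 119 TPM on average in the gene table and 117 TPM in the kallisto-layout table. Rps23-ps1, which shares all of its 31-base stretches with Rps23, had 301 and 262 TPM in the gene table, against 84.1 and 82.2 TPM for Rps23. In the kallisto-layout table the order turned, with 145 TPM for Rps23-ps1 and 185 TPM for Rps23 on average.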
